A study of Schizosaccharomyces pombe with 6 samples.

Results

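Subtelomeric genes are the genes next to the ends of the chromosomes, and 6 of them were followed here in the fission yeast Schizosaccharomyces pombe. The 6 are SPAC212.08c, SPAC750.07c, SPAC750.08c, dak2, SPAC869.02c (current name yhb1) and SPBPB2B2.08. They were read by 5 probe sets, sets of short oligonucleotides on an Affymetrix Yeast Genome array, out of 8960 probe sets that remained once 173 controls were set aside. The array also carries probe sets for Saccharomyces cerevisiae, and the files give no species for most of the 8960, so shares and medians over the whole table mix both yeasts. The genes were chosen by their presence in the lists of differing probe sets that the authors deposited for these same arrays. Each list held probe sets with an unadjusted p-value under 0.05 in 1 comparison, so the differences between groups that follow describe the genes and test nothing.

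The study measured total RNA from cells overexpressing Spc1K49R, cells overexpressing Spc1, and control cells carrying the empty vector, with 2 arrays per group described as biological replicates. Spc1, encoded by sty1, is the stress-activated MAP kinase of fission yeast, and the name Spc1K49R records a lysine-to-arginine change in it. Strain, vector promoter, medium and growth time are not given in the sources used here. Each log2 value gives the signal of a probe set on an array less its median over the 6 arrays, and carries no absolute level. Because every probe set is centred in this way, its middle 2 arrays always lie at equal distances on either side of 0. The number of arrays limits the precision of every value.

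In fission yeast the DNA next to the telomeres is packed into heterochromatin, in which histone H3 lysine 9 methylation and the protein Swi6 keep genes at low levels. Farther inside lie genes that are repressed during growth and that can be turned on by stress or nitrogen starvation. Stretches of subtelomeric sequence are repeated at several chromosome ends, so that near-identical copies of a gene can share an array signal. The stress MAP kinase acts through the transcription factor Atf1 on genes of the general stress response. None of the 20 silencing factors on a list of heterochromatin and telomere genes had a named probe set here, so their levels were not analysed here.

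The arrays were not equal in quality. The transcript of sty1 had log2 values of 1.20 and -1.37 with Spc1K49R and 1.04 and 1.49 with Spc1, against -1.07 and -1.04 with empty vector. The array labelled Spc1K49R replicate 2 therefore went against its label, and directions drawn from the Spc1K49R group below include it. Over 6 S. pombe control genes the 5' signal minus the 3' signal, which falls when RNA is degraded or incompletely copied, was -1.53 on Spc1 replicate 1 and -0.56 on empty vector replicate 1. It lay between -0.10 and 0.40 on the other 4 arrays. The SD over all tested probe sets was 0.82 on Spc1 replicate 1 and 0.11 to 0.31 elsewhere.

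The genes occupy both ends of chromosome I and the right end of chromosome II. In the gene order of the assembly ASM294v3, SPAC750.08c is the outermost protein-coding gene at the right end of chromosome I, and SPAC750.07c is next to it. SPAC212.08c is the second protein-coding gene from the left end of the same chromosome, after tlh1, a telomere-linked helicase gene. The gene dak2 is number 24 from that left end, and SPAC869.02c is number 19 from the right end of chromosome I. SPBPB2B2.08 is number 17 from the right end of chromosome II, between SPBPB2B2.07c and pan5 (SPBPB2B2.09c).

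The outermost genes share probe sets between the 2 ends of chromosome I. A single probe set reads SPAC212.08c and SPAC750.07c, which lie at opposite ends of chromosome I, and the authors' deposited table calls both GPI-anchored proteins. The probe set named SPAC750.08c carries the public identifier SPAC212.09c, which the gene table lists as a pseudogene at the left end. For these 2 probe sets the signal of the 2 ends cannot be told apart.

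The GPI-anchored pair had its lowest signal in the empty-vector cells. GPI-anchored proteins are held at the outer face of the plasma membrane or in the cell wall by a lipid tail. The shared probe set had log2 values of 0.06 and 0.22 with Spc1K49R and -0.06 and 0.07 with Spc1, against -0.16 and -0.57 with empty vector. All 4 arrays labelled Spc1K49R or Spc1 lay above both empty-vector arrays, and the Spc1K49R and Spc1 arrays overlapped. The difference from empty vector was 0.51 (SE 0.19) for Spc1K49R, or 1.42-fold, and 0.37 (SE 0.19) for Spc1, or 1.29-fold. The 2 empty-vector arrays differed from each other by 0.41. Without empty vector replicate 2, the lower array, the Spc1K49R difference was 0.30 and the Spc1 difference 0.16. Without empty vector replicate 1 they were 0.71 and 0.58. Spc1K49R was above Spc1 by 0.14 (SE 0.19), less than that error.

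SPAC750.08c, the neighbour of SPAC750.07c, had its highest signal in the empty-vector cells. The authors' deposited table gives its product as an NAD-dependent malic enzyme, an enzyme class that turns malate into pyruvate. Its log2 values were -0.07 and 0.07 with Spc1K49R and -0.46 and -0.12 with Spc1, against 0.52 and 0.28 with empty vector. No groups overlapped, with empty vector highest, Spc1K49R between and Spc1 lowest. Over all tested probe sets 1.62% had the arrays in this order of groups, which was looked for after the values were seen. The difference from empty vector was -0.69 (SE 0.19) for Spc1, 1.61-fold lower, and -0.40 (SE 0.19) for Spc1K49R, 1.32-fold lower. Leaving out any single array kept the Spc1 difference between -0.86 and -0.52 and the Spc1K49R difference between -0.52 and -0.28. The lower Spc1 array was replicate 1, the array with the low 5' signals, and the highest array was empty vector replicate 1, which had the next lowest 5' signal. With the 5' minus 3' difference of the arrays as a covariate, the Spc1 difference was -0.62 and the Spc1K49R difference -0.42. Spc1K49R minus Spc1 was then 0.20 (SE 0.23). The part of RNA state in this order was not tested. Spc1K49R lay 0.29 (SE 0.19) above Spc1, or 0.12 without Spc1 replicate 1 and 0.05 without that array and Spc1K49R replicate 2.

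The gene dak2 encodes a dihydroxyacetone kinase, which feeds glycerol-derived dihydroxyacetone into glycolysis. Its log2 values were 0.14 and 0.17 with Spc1K49R and -0.14 and 0.29 with Spc1, against -0.25 and -0.16 with empty vector. The 4 arrays labelled Spc1K49R or Spc1 again lay above both empty-vector arrays, though Spc1 replicate 1 cleared the higher of them by only 0.03. The Spc1K49R mean of 0.15 ± 0.02 (SD, n = 2) exceeded the empty-vector mean of -0.21 ± 0.07 (SD, n = 2) by 0.36 (SE 0.19), or 1.28-fold. This difference lay between 0.31 and 0.41 when any 1 array was left out, the narrowest such range of the 5 probe sets in that comparison. Its SE of 0.19 pools the spread within all groups, including that of the Spc1 arrays. The Spc1 mean of 0.08 ± 0.30 (SD, n = 2) was 0.28 (SE 0.19) above empty vector, and this was 0.50 without Spc1 replicate 1, 0.07 without Spc1 replicate 2 and 0.45 once the 5' minus 3' difference entered the fit as a covariate. Spc1K49R and Spc1 differed by 0.08 (SE 0.19), less than the spread between the Spc1 arrays, and by -0.14 without Spc1 replicate 1.

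SPAC869.02c (yhb1) encodes a predicted nitric oxide dioxygenase, a flavohaemoglobin type of enzyme that converts nitric oxide to nitrate. Its log2 values were -0.13 and -0.14 with Spc1K49R and 0.21 and -0.13 with Spc1, against 0.65 and 0.13 with empty vector. The Spc1K49R arrays were the lowest of the 6 and nearly equal, whereas the Spc1 and empty-vector arrays overlapped. The Spc1K49R difference from empty vector was -0.53 (SE 0.23), 1.44-fold lower, and the Spc1 difference was -0.35 (SE 0.23), 1.27-fold lower. Both rest in part on empty vector replicate 1, which stood 0.53 above its partner, and the Spc1 difference rests largely on it. Without that array they were -0.26 and -0.09, and without empty vector replicate 2 they were -0.79 and -0.61. Spc1K49R minus Spc1 was -0.18 (SE 0.23), and Spc1 replicate 2 cleared the nearer Spc1K49R array by 0.002. That difference was -0.01 without Spc1 replicate 1. It was 0.15 with the 5' minus 3' covariate, under which Spc1 minus empty vector was -0.59.

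SPBPB2B2.08, which the authors' deposited table describes as a conserved fungal protein, separated the arrays labelled Spc1K49R from those labelled Spc1, while its control arrays lay far apart. Its log2 values were -0.38 and -0.47 with Spc1K49R and 0.39 and 0.38 with Spc1, against 0.62 and -0.54 with empty vector. The empty-vector arrays were the highest and the lowest of the 6, 1.15 apart, so the Spc1K49R and Spc1 groups fell inside their range. The difference of Spc1K49R minus Spc1 was -0.81 (SE 0.39), 1.75-fold lower, with a gap of 0.76 between the nearest arrays of the 2 groups. Leaving out any single array kept this difference between -0.85 and -0.76, a narrow range that follows from the near-equal arrays within each form. It was -0.42 (SE 0.42) with the 5' minus 3' difference of the arrays as a covariate, no larger than that error. Against empty vector, Spc1K49R was at -0.46 (SE 0.39) and Spc1 at 0.34 (SE 0.39), or -0.36 and 0.07 with that covariate. The sign of the first turned to 0.11 without empty vector replicate 1, and that of the second to -0.23 without empty vector replicate 2. The 3 arrays with high values, both Spc1 arrays and empty vector replicate 1, were also the 3 with the lowest 5' minus 3' difference. Over all tested probe sets 6.58% had these 3 arrays above the other 3, a pattern looked for after the values were seen. The part of RNA state in the SPBPB2B2.08 values was not tested.

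**Figure D1:**
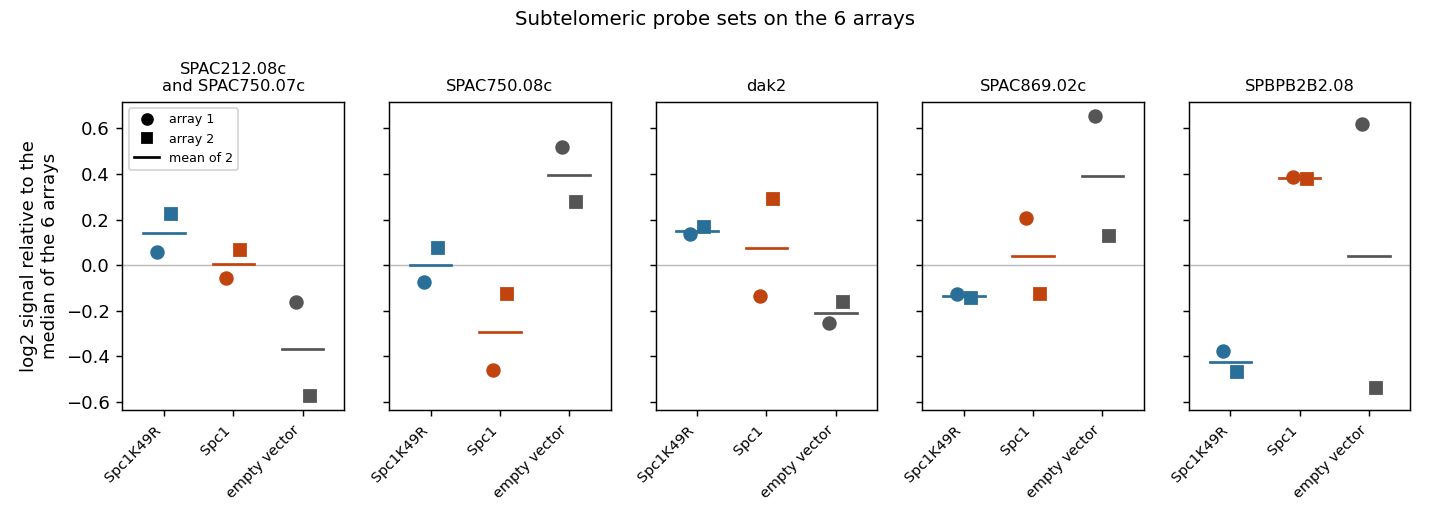
Log2 signal less the 6-array median (vertical axis) for the 5 subtelomeric probe sets, with Spc1K49R, Spc1 and empty vector from left to right. Circles are array 1, squares are array 2 and lines are the mean of 2, and the empty-vector arrays are the 2 lowest for dak2 and for SPAC212.08c and SPAC750.07c, the 2 highest for SPAC750.08c and the 2 extremes for SPBPB2B2.08.

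The plot of values by array shows that the subtelomeric genes did not share a direction. Against empty vector, Spc1K49R had both arrays above both controls for 2 of the 5 probe sets and below for 2, beside 12.0% above and 11.7% below in the whole table, 23.7% in either direction. Spc1 had both arrays above for 2 and below for 1, beside 10.5% and 14.4% in the whole table, 24.9% in either direction. Spc1K49R lay above Spc1 for 1 and below for 2, beside 21.6% and 14.5%, 36.1% in either direction. The members were selected on these comparisons, so nothing is read from their counts beside these shares. The empty-vector arrays were the 2 lowest of the 6 for 2 probe sets, as for 3.05% of all probe sets, and the 2 highest for 1, as for 3.94%. Both of these patterns were picked after the values were seen.

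The widest of the 15 differences was the 1.75-fold of SPBPB2B2.08. The median absolute difference of the 5 was 0.46 for Spc1K49R and 0.35 for Spc1 against empty vector, beside 0.08 and 0.20 over all tested probe sets. Between Spc1K49R and Spc1 it was 0.18, beside 0.21 over all. The signed median of the 5 was -0.40 for Spc1K49R and 0.28 for Spc1 against empty vector, beside 0.003 and -0.05 over all probe sets. The 5 were selected on these comparisons, so nothing is read from their medians beside those of the whole table. The value of 0.20 over all probe sets for Spc1 was 0.11 without Spc1 replicate 1. In limma's moderated test across all 8960 probe sets, 0 had an adjusted p under 0.05 in any of the 3 comparisons, a share of 0%. At an unadjusted p under 0.05 there were 8 for Spc1K49R, 108 for Spc1 and 91 for Spc1K49R against Spc1. With 2 arrays against 2, a two-sided exact permutation test cannot go below a p of 0.333.

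**Figure D2:**
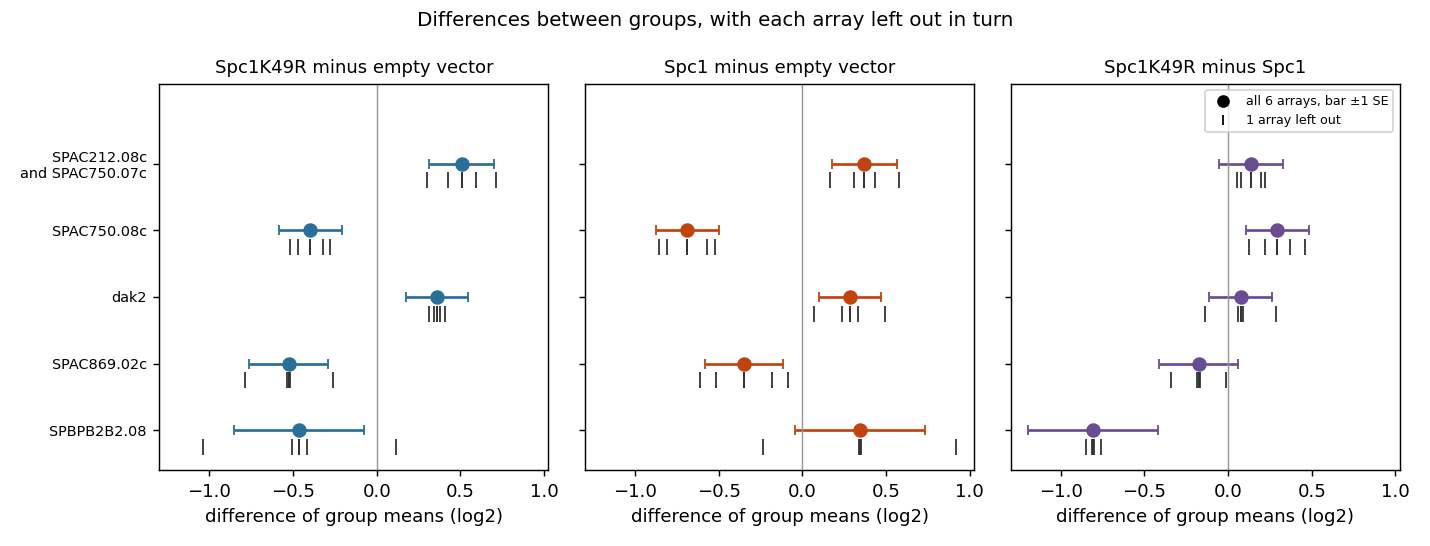
Difference of group means in log2 units (horizontal axis) for each of the 5 probe sets, in panels for Spc1K49R minus empty vector, Spc1 minus empty vector and Spc1K49R minus Spc1. Points are the value from all 6 arrays with bars of 1 SE, and ticks are the value with 1 array left out, which for SPBPB2B2.08 cross 0 in both comparisons with empty vector but stay between -0.85 and -0.76 in Spc1K49R minus Spc1.

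The plot of differences sets the 2 forms side by side for each gene, where both comparisons with empty vector use the same 2 control arrays. For the GPI-anchored pair and dak2 both differences were positive, at 0.51 and 0.37 and at 0.36 and 0.28 for Spc1K49R and Spc1. For SPAC750.08c and SPAC869.02c both were negative, at -0.40 and -0.69 and at -0.53 and -0.35. SPBPB2B2.08 alone had a negative value for Spc1K49R, -0.46, and a positive one for Spc1, 0.34. Of the 15 differences, 10 kept their sign under every alternative computed, among them 4 of 5 in each comparison with empty vector and 2 of 5 between Spc1K49R and Spc1. Where 2 groups do not overlap, leaving out an array cannot change the sign. That held for 4 of 5 for Spc1K49R and 3 of 5 for Spc1 against empty vector, in probe sets selected on these comparisons. The kept signs therefore say little about how steady the differences are.

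In the authors' deposited tables the groups are coded. No label states the codes, and they were read by setting the listed log2 fold changes beside the differences here. With mutant B as Spc1, mutant C as Spc1K49R and wild type as empty vector, all 47, 30 and 124 listed probe sets other than controls had the same sign in B against C, B against wild type and C against wild type. The median gap was then 0.02, 0.05 and 0.05 log2 units, the smallest of the 6 readings tried for each table. Single probe sets differed by up to 0.21, 0.40 and 0.32, so the values are close and not equal. The table of mutant C against wild type lists 4 of the 5 probe sets. In the authors' deposited table the GPI-anchored pair is 1.41-fold higher (unadjusted p 0.0393), dak2 1.29-fold higher (0.0149), SPAC750.08c 1.32-fold lower (0.0313) and SPAC869.02c 1.45-fold lower (0.0474). For mutant B and wild type the authors' deposited table lists SPAC750.08c alone of the 5, 1.52-fold lower in mutant B (unadjusted p 0.0402). SPBPB2B2.08 is listed between the 2 mutants, 1.62-fold higher in B than in C (unadjusted p 0.0123 in the authors' deposited table). SPAC869.02c was thus the member nearest to the authors' threshold of 0.05, and values just outside it are not analysed here, since the tables stop there.

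Without both Spc1 replicate 1 and Spc1K49R replicate 2, an alternative added after seeing the data, every comparison with empty vector kept its sign. No sign could have changed here. For every probe set both arrays of each form lay on the same side of the empty-vector mean, and both empty-vector arrays stayed in. The Spc1K49R differences were then 0.43 for the GPI-anchored pair, -0.47 for SPAC750.08c, 0.34 for dak2, -0.52 for SPAC869.02c and -0.42 for SPBPB2B2.08. The Spc1 differences were 0.43, -0.52, 0.50, -0.52 and 0.34 in the same order of genes. Between the 1 array left of each form, only SPBPB2B2.08 differed by more than 0.2, at -0.76.

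Among themselves the 5 profiles fell into unlike shapes over the 6 arrays. The closest were the GPI-anchored pair and dak2, with a Pearson correlation of 0.69 and a root mean square difference of 0.20 log2 units. SPAC869.02c correlated at 0.61 with SPBPB2B2.08, at 0.51 with SPAC750.08c and at -0.88 with dak2. The neighbouring genes at the right end of chromosome I, SPAC750.07c and SPAC750.08c, had probe sets that correlated at -0.42. These correlations run over 6 arrays that share 2 controls and an array of poor 5' signal, and centring affects them, so they serve as a description.

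The most similar named S. pombe profiles were found among 76 named probe sets, all of them picked by the study on these arrays. SPAC750.08c was most like SPAC1F8.08, a gene annotated as a sequence orphan, at a correlation of 0.99 over 6 arrays, and then meu15, also an orphan, at 0.98. The SPAC1F8.08 log2 values were -0.08 and 0.08 with Spc1K49R and -0.77 and -0.11 with Spc1, against 0.64 and 0.31 with empty vector. That is the group order of SPAC750.08c, and SPAC1F8.08 is itself number 35 from the left end of chromosome I. Of all tested probe sets, 1.05% reached a correlation of 0.9 with SPAC750.08c. The 0.0112% that reached the correlation of SPAC1F8.08 is SPAC1F8.08 itself, so that share gives no background.

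SPBPB2B2.08 was most like spo6, a regulatory subunit of a kinase of the second meiotic division, at 0.97. Next came SPAC13G6.13, a sequence orphan, at 0.96. The spo6 values were -0.44 and -0.31 with Spc1K49R and 0.60 and 0.31 with Spc1, against 0.59 and -0.46 with empty vector. The split of the empty-vector arrays was present in both genes, but spo6 was picked by its correlation over these same arrays. Of all tested probe sets, 0.848% reached a correlation of 0.9 with SPBPB2B2.08, and 0.0670%, spo6 included, reached that of spo6. For dak2 the likest were mei2, an RNA-binding regulator of meiosis, at 0.91 and SPAC17G6.05c, annotated as a vacuolar sorting protein, at 0.90.

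SPAC869.02c was most like SPAC11D3.09, a predicted agmatinase, at 0.89, and then the shared probe set of matmi_1 and matmi_2, mating-type genes, at 0.73. The last of these had 1.88 on empty vector replicate 1, far above its other 5 arrays. Among the named probe sets the GPI-anchored pair had none at 0.9 or above, a level that 0.0558% of all tested probe sets reached, with 0.72 for SPAC22H10.06c, annotated as dubious, and 0.57 for mam2, the receptor gene for P-factor.

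**Figure D3:**
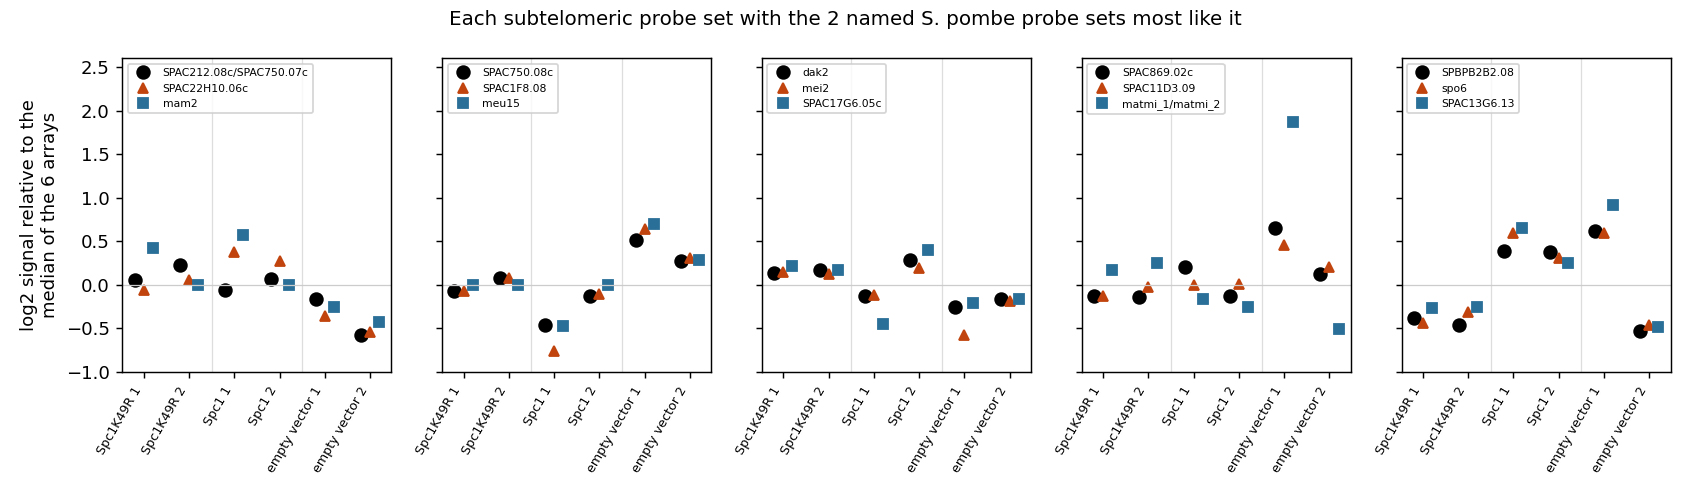
Log2 signal less the 6-array median (vertical axis) on each array (horizontal axis) for each subtelomeric probe set (black circles) and the 2 named S. pombe probe sets with the highest correlation (triangles first, squares second). SPAC750.08c and SPAC1F8.08 follow each other at 0.99 over the 6 arrays, and SPBPB2B2.08 and spo6 share the split between the 2 empty-vector arrays.

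Another 8 named probe sets lay near chromosome ends, by cosmid name or by being among the 40 outermost protein-coding genes. They too came from the study's own selection. Against empty vector 6 of the 8 differences were negative for Spc1K49R and 6 for Spc1, with medians of -0.23 and -0.30. Over all tested probe sets 50.9% of the Spc1K49R differences and 41.5% of the Spc1 differences were positive, with medians of 0.003 and -0.05. With limma 0 of the 8 passed in any comparison. Both Spc1K49R arrays were above both controls for 2 of the 8 and below for 4, and both Spc1 arrays were above for 0 and below for 3. The shares in the whole table were the 12.0% above and 11.7% below given for Spc1K49R, and the 10.5% and 14.4% given for Spc1, and nothing is read from these counts either.

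SPAC1F8.08 was at -0.48 (SE 0.27) for Spc1K49R and -0.91 (SE 0.27) for Spc1. SPAC11D3.09 was at -0.40 (SE 0.15) and -0.33 (SE 0.15), and its neighbour SPAC11D3.10, a hypothetical protein, at -0.33 (SE 0.32) and 0.22 (SE 0.32). The shared probe set of the 4 predicted membrane transporters SPBPB10D8.04c to SPBPB10D8.07c was at -0.47 (SE 0.18) and -0.14 (SE 0.18). SPAC1039.08, a predicted serine acetyltransferase, was at -0.03 (SE 0.17) for Spc1K49R and -0.48 (SE 0.17) for Spc1.

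The 3 named genes near the ends of chromosome III had larger errors. SPCC569.02c, the second gene from the right end, was at 0.84 (SE 0.63) for Spc1K49R and -0.66 (SE 0.63) for Spc1, and its value on Spc1 replicate 1 was -1.86. SPCP1E11.10 was at 0.42 (SE 0.54) and -0.28 (SE 0.54), and SPCC757.02c at -0.12 (SE 0.37) and 0.59 (SE 0.37). Over all 13 named end probe sets the Spc1K49R differences were positive for 4 and negative for 9, beside 50.9% positive over all tested probe sets. The Spc1 differences were positive for 5 and negative for 8, beside 41.5% positive over all. The 240 protein-coding genes that lie within 40 of a chromosome end were not all read here, since only 76 S. pombe probe sets have a name in the files, so these counts do not describe the subtelomeres as a whole.

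**Figure D4:**
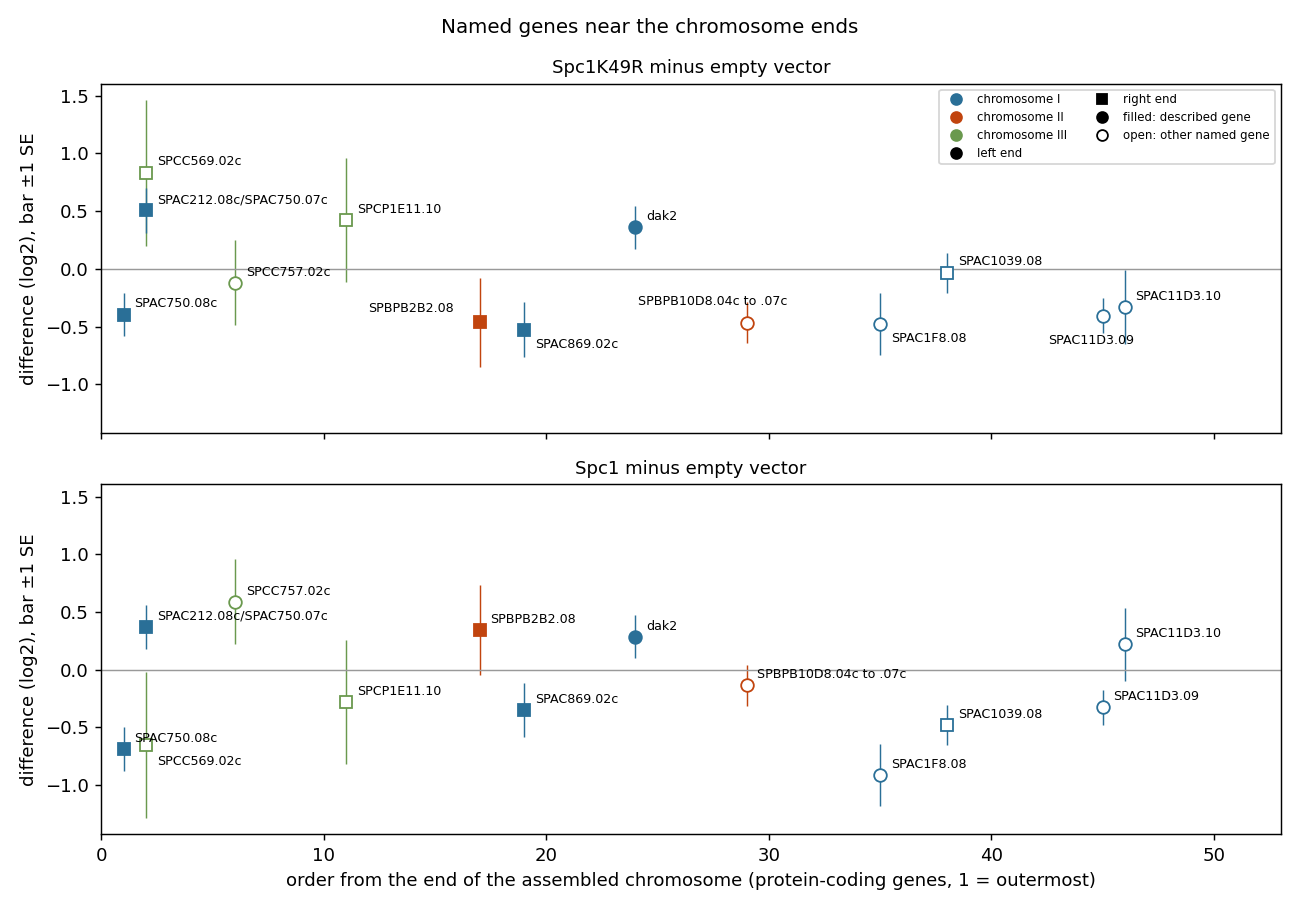
Difference from empty vector in log2 units with bars of 1 SE (vertical axis) against the order of protein-coding genes from the chromosome end (horizontal axis), for Spc1K49R above and Spc1 below. Filled symbols are the subtelomeric genes described here, open symbols the other 8 named end genes, circles the left end, squares the right end, and colours the chromosomes. The probe sets of the GPI-anchored pair and of SPAC750.08c, drawn at the right end, cannot tell the ends of chromosome I apart. Values of both signs occur among the outermost genes.

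Lists of genes with related functions added no further member. Of 8 genes of glycerol and dihydroxyacetone use, 11 of nitrosative and oxidative stress and 6 of malate and pyruvate use, 1 each had a named probe set, namely dak2, yhb1 and SPAC750.08c. Of 5 genes of the GPI-anchored family of the chromosome ends, SPAC212.08c and SPAC750.07c were named through their shared probe set.

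Across the 6 arrays the subtelomeric probe sets spanned ranges of 0.54 for dak2, 0.80 for the GPI-anchored pair, 0.80 for SPAC869.02c, 0.98 for SPAC750.08c and 1.15 for SPBPB2B2.08. The median range of all tested probe sets was 0.57. A range as large as that of SPBPB2B2.08 was found in 19.5% of probe sets, and one as large as that of dak2 in 52.8%. The members were selected on these same arrays, so nothing is read from their ranges beside those shares.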

How the data were processed

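Total RNA from 6 samples was labelled with biotin and hybridised to Affymetrix Yeast Genome arrays, per the labels and the file headers. The authors deposited log2 values per array, and every probe set has a median of 0 over the arrays. The sources used here do not give the normalization, and the log2 base was inferred from the fold changes of the authors' deposited tables. Those 3 tables give a linear ratio (fold change), a signed fold score, a log2 fold change and an unadjusted p-value, per the file headers, after a filter on raw signal that kept percentiles 10 to 100.

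Differences were fitted with lmFit and eBayes of limma 3.58.1 (R 4.3.3) to all 6 arrays, taking 1 mean for each group, which leaves 3 residual degrees of freedom. Each SE therefore pools the spread within all groups, also that of the group outside the comparison. Benjamini-Hochberg adjustment ran over 8960 probe sets, with a threshold of 0.05. The fit was tested on simulated data. P-values measure only the spread between arrays labelled as biological replicates. Every probe set of the 6 genes is named, with sty1 as the check of labels and the 2 named S. pombe probe sets of highest Pearson correlation per member, with no p. Members and lists were chosen with earlier results of these data known. Names came from the deposited tables, and all 76 named S. pombe probe sets were matched to the gene table of assembly ASM294v3, used for names and gene order only. Alternatives were array centring, array weights, robust variances, a replicate block, the arrays and probe sets entering the fit, the threshold, each array left out, and 2 alternatives added after seeing the data.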

Additional observations from a re-analysis of the deposited data

Results flagged for a closer look

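SPBPB2B2.08 had both Spc1K49R arrays below the empty-vector mean of 0.04 and both Spc1 arrays above it, with a difference of -0.81 between Spc1K49R and Spc1. The opposite directions against the shared controls were not tested, since the gene was selected on the direct comparison of the 2 forms and the empty-vector arrays themselves lay at 0.62 and -0.54. They are not particular to this gene. Among the named probe sets spo6, for one, was at -0.44 for Spc1K49R and 0.39 for Spc1 against empty vector. The share of all probe sets with such a pattern was not computed.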

How the results depend on the processing

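No probe set had an adjusted p under 0.05 with limma in any comparison with all 6 arrays, nor after centring, robust variances, array weights, keeping the controls, using only the 4 arrays compared, or leaving out both Spc1 replicate 1 and Spc1K49R replicate 2. With 1 array left out the count ranged from 0 to 2968 for Spc1 against empty vector and from 0 to 3234 for Spc1K49R against Spc1, the higher values without Spc1 replicate 2, when Spc1 replicate 1 stood alone and was assumed to vary like the other groups, and it stayed at 0 for Spc1K49R against empty vector. At an unadjusted p under 0.05 the counts were 108 and 91 in those comparisons and 8 in Spc1K49R against empty vector. With the replicate block the count was 0 in all 3 comparisons. As a check of pairing, the replicate 1 deviations of Spc1 and empty vector correlated at 0.47. Those of Spc1K49R correlated at 0.07 with empty vector and at 0.10 with Spc1. The labels give the samples a shared replicate number and no other pairing. What the replicate 1 arrays of Spc1 and empty vector have in common was not tested. Of 165 alternative values for the 15 differences of the subtelomeric probe sets, 144 moved by less than the SD between arrays of a group, 21 moved by more and 7 had the other sign. Of those 7, 2 were the comparisons of SPBPB2B2.08 with empty vector given above. The other 5 were Spc1K49R minus Spc1, at -0.01 for the GPI-anchored pair without the 2 doubted arrays (Spc1 replicate 1 and Spc1K49R replicate 2), at -0.14 for dak2 without Spc1 replicate 1, -0.15 without the 2 doubted arrays and -0.16 with the 5' minus 3' covariate, and at 0.15 for SPAC869.02c with that covariate. The cause of these shifts was not tested. With 2 arrays per group, the replicate block and the array weights cannot move these 15 differences. Nor can leaving out an array of the group not compared. All such values are among the 144, so that count overstates how steady the differences are. With centred values the signal over background is unknown, so no limit from signal can be given.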
